A study of Oryza sativa Japonica Group with 30 samples.

Results

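Heat shock genes of rice were followed through drought in leaves of OE-19 and of ZH11. They are 50 genes listed by their MSU locus identifiers, a list drawn up with earlier results of these data known: 24 heat shock factor (HSF) genes, 17 small heat shock protein (sHSP) genes, and 9 genes that encode HSP101, HSP70 and HSP90. The deposited expression table has 55490 features and holds 47 of the 50, and the other 3 (2 HSF and 1 sHSP genes) were not analysed here. OE-19 is 1 transgenic line in the Zhonghua 11 (ZH11) background that carries the SNAC1 coding sequence behind the maize ubiquitin promoter, which is active in most tissues, and SNAC1 is a NAC transcription factor linked to drought resistance. ZH11 is the parent variety without the transgene. Leaves were taken at the 4-leaf stage from OE-19 under drought (SNAC1-D) and normal watering (SNAC1-N) and from ZH11 under drought (ZH11-D) and normal watering (ZH11-N), with 3 libraries in each of the 4 groups, 12 in all. The 2 genotypes shared pots, and drought was imposed by stopping water until the leaves had rolled and yellowed. The study calls the 3 RNA-Seq replicates independent and the drought moderate, but neither its methods nor the labels say whether replicates came from separate plants or pots, and p-values here measure the spread between libraries, which may be technical.

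Heat shock factors are transcription factors that bind heat shock elements in promoters. Class A members activate chaperone genes, while class B and class C members lack the activator motif of class A, and many of them act as repressors or co-regulators. The chaperones divide the work: sHSPs hold unfolding proteins without ATP, HSP101 pulls proteins out of aggregates, HSP70 refolds them with its co-chaperones, and HSP90 matures signalling proteins and keeps HSFs in check. Plants use these genes in heat and also in drought, salt and seed drying.

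Levels are FPKM, which are fragments per length of transcript, scaled to the mapped fragments of the library, so levels of different genes can be compared. Differences are given as log2FC on log2(FPKM + 0.5), a scale that understates the change of genes with low FPKM. A gene was called higher or lower at a log2FC of at least 1 in size with an adjusted p-value under 0.05 in limma, a two-sided moderated linear model fitted to 19979 features whose mean was 1 FPKM or more, with Benjamini-Hochberg adjustment over all of them. Of the 47 genes 41 were tested: 17 of 22 HSF, 15 of 16 sHSP and 9 of 9 HSP101/70/90 genes. Of those 41, 5 genes (4 sHSP and 1 HSP101/70/90) had a mean under 1 FPKM over the watered libraries and passed the filter through drought. LOC_Os01g43590, an HSF gene, was under 1 FPKM in each droughted library and passed it through the watered ones. Counts of calls are therefore not counts over the whole set.

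Libraries were checked first. SNAC1 itself (LOC_Os03g60080) had 667, 981 and 747 FPKM in SNAC1-D and 764, 995 and 781 FPKM in SNAC1-N, against 329, 530 and 430 FPKM in ZH11-D and 27.2, 44.8 and 39.7 FPKM in ZH11-N, so each OE-19 library was above each ZH11 library of its watering. limma called SNAC1 higher in OE-19 under normal watering (log2FC 4.51, adjusted p = 1.03e-05) and not under drought (0.90, adjusted p = 0.949). The 5 leaf markers, genes of the Rubisco small subunit and of light-harvesting proteins, were between 158 and 22580.4 FPKM in every library, and 5 of 5 were called lower under drought in OE-19 and 4 of 5 in ZH11. The root marker LOC_Os02g44310 was at most 0.536 FPKM. In bulk leaf RNA fewer cells of a type and less RNA per cell cannot be told apart. Replicate 1 under normal watering stood apart from replicates 2 and 3 in both genotypes. By a rule set after the data had been seen, a log2 difference of at least 1 from both other libraries in both genotypes, 6.04% of the 19979 features were lower in it and 4.22% higher. The same rule picked, in either direction, 0.0951% of the features for watered replicate 2 and 0.0551% for watered replicate 3, and 1.38%, 0.0501% and 0.03% for droughted replicates 1, 2 and 3. The drought log2FC of each tested heat shock gene that was apart by this rule is therefore given with and without watered replicate 1 of both genotypes.

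Drought raised most of the tested chaperone genes in both genotypes. In OE-19 24 of 41 tested heat shock genes were called higher, 1 lower and 16 neither, where 13.2% of all features were called higher and 17.9% lower. In ZH11 26 were called higher, 1 lower and 14 neither, against 13.8% higher and 18.2% lower among all features. The median of the signed log2FC of the 41 genes was 2.76 for OE-19 and 2.81 for ZH11, beside 0.07 and 0.06 over all tested features. Libraries of the 2 waterings did not overlap for 35 genes higher and 1 lower under drought in OE-19 (34.5% and 29.7% of all features), and for 34 higher and 1 lower in ZH11 (31.8% and 28.1%). The 2 drought contrasts share no library, but they are not independent, since the genotypes shared pots and 1 fit gave both their standard errors. Deviations of watered libraries of the same number from their group means correlated across the genotypes (r = 0.981, 0.894 and 0.890 over the 41 genes). For droughted libraries this r was lower, at 0.493, 0.239 and 0.194.

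**Figure D1:**
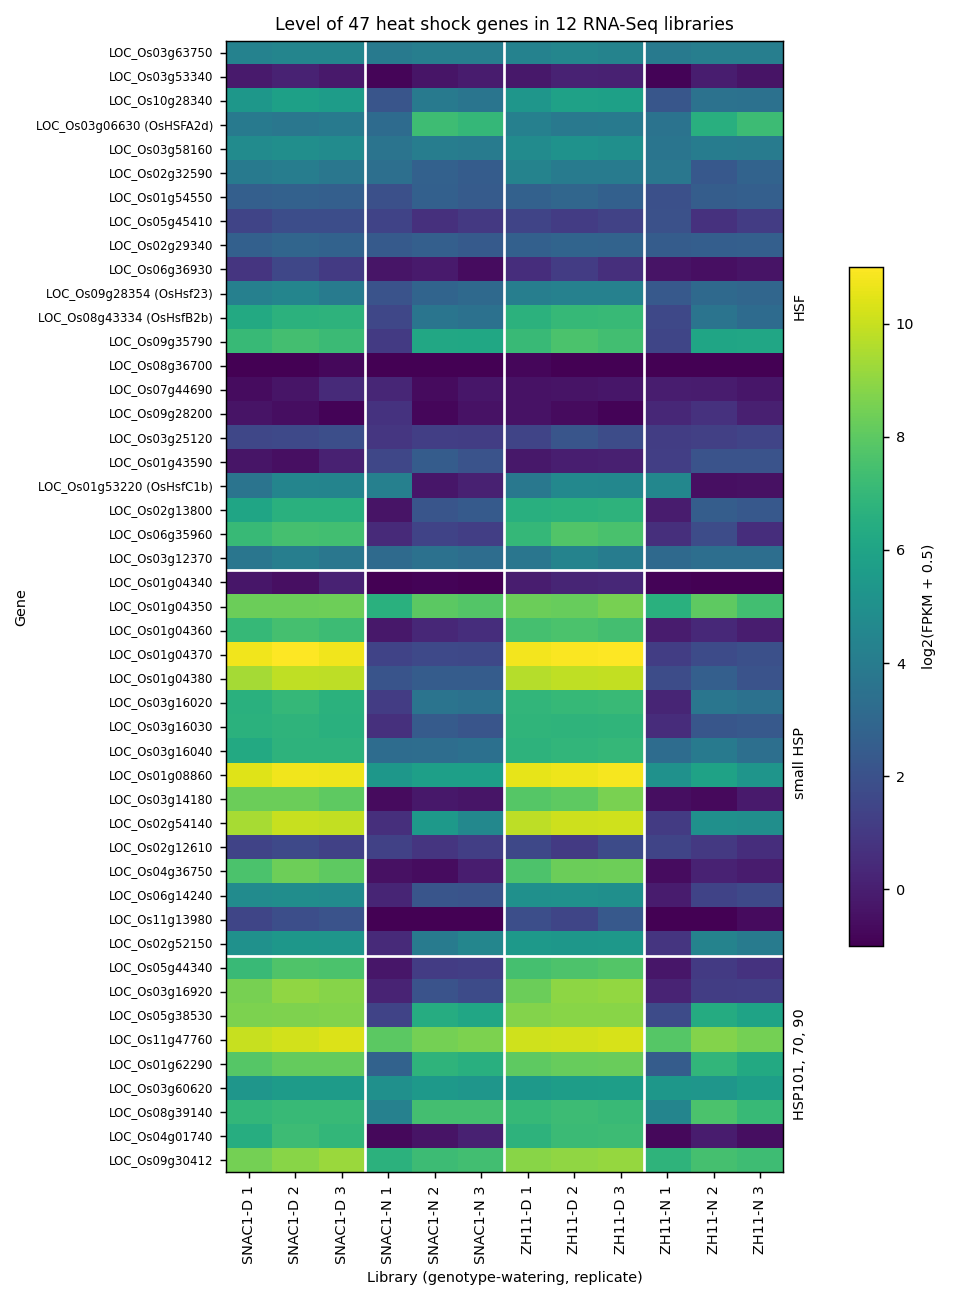
Level of each of the 47 measured heat shock genes, as log2(FPKM + 0.5) in colour, with genes in rows by role (22 HSF, 16 sHSP, 9 HSP101/70/90) and the 12 libraries in columns by group. Most sHSP and HSP101/70/90 rows are bright in the 6 droughted libraries, and replicate 1 of SNAC1-N and of ZH11-N is darker than the other watered libraries in many rows.

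Summed over the 47 genes, transcript levels were 9056, 11323 and 10853 FPKM in SNAC1-D, against 678, 1672 and 1594 FPKM in SNAC1-N. In ZH11 the sums were 10020.3, 11492 and 12100.3 FPKM in ZH11-D, against 680 FPKM (replicate 1), 1735 and 1442 FPKM in ZH11-N. The droughted libraries thus lay above every watered library of their genotype. The sHSPs made up most of the sum under drought, with 5725 to 7196 FPKM in SNAC1-D against 162 to 405 FPKM in SNAC1-N, and 6293 to 7658 FPKM in ZH11-D against 153 to 416 FPKM in ZH11-N. As a share of all FPKM in a library, sHSPs were 0.744% to 0.862% in SNAC1-D and 0.0222% to 0.0433% in SNAC1-N, and 0.785% to 0.903% in ZH11-D and 0.0199% to 0.0504% in ZH11-N. The HSFs summed to 588 to 771 FPKM in SNAC1-D and 101 to 339 FPKM in SNAC1-N, with replicate 1 the lowest in each.

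**Figure D2:**
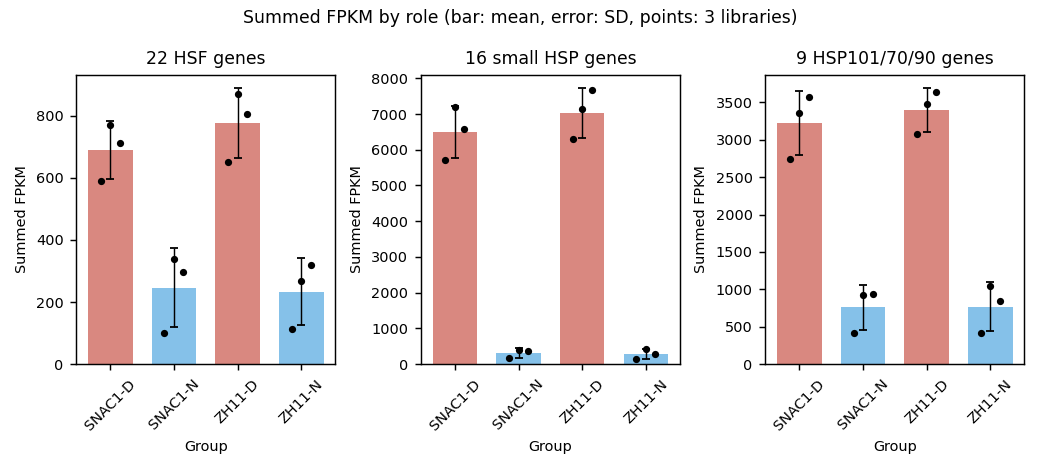
Summed FPKM of the 22 HSF, 16 sHSP and 9 HSP101/70/90 genes per group, where bars are means of 3 libraries, error bars the SD and points the libraries. The 3 droughted libraries of each genotype lie above its 3 watered libraries in all 3 panels, and in sHSPs the watered bars are close to 0 beside the droughted ones.

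The HSF genes were split. In OE-19 6 of 17 tested HSFs were called higher under drought, 1 lower and 10 neither, against 13.2% higher and 17.9% lower among all features. In ZH11 7 were higher, 1 lower and 9 neither, against 13.8% higher and 18.2% lower. The median log2FC of the HSFs was 0.94 for OE-19 and 1.07 for ZH11, the lowest of the 3 roles. Of the 17 HSFs 0 had a mean under 1 FPKM over the watered libraries, against 4 of 15 sHSPs and 1 of 9 HSP101/70/90 genes.

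LOC_Os06g35960 had the largest HSF change. Its levels were 134, 176 and 167 FPKM in SNAC1-D against 0.847, 2.16 and 1.81 FPKM in SNAC1-N, and 127, 214 and 188 FPKM in ZH11-D against 1.05, 2.98 and 0.999 FPKM in ZH11-N. No droughted library came near a watered one. Its log2FC was 6.29 ± 0.36 (SE) for OE-19 and 6.42 ± 0.36 for ZH11, with limma adjusted p-values of 1.2e-06 and 9.96e-07. LOC_Os02g13800, a further HSF gene, had 65.2, 99.2 and 98.4 FPKM in SNAC1-D against 0.265, 3.99 and 4.80 FPKM in SNAC1-N, and 93.2, 99.3 and 106 FPKM in ZH11-D against 0.440, 5.33 and 4.37 FPKM in ZH11-N. Watered replicate 1 was the lowest library in both genotypes, and the waterings did not overlap. The log2FC was 5.04 ± 0.78 for OE-19 and 5.06 ± 0.78 for ZH11, with limma adjusted p-values of 0.00044 and 0.0004, and without watered replicate 1 it was 4.15 ± 0.19 and 4.23 ± 0.19.

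OsHsfB2b (LOC_Os08g43334), a class B factor described in rice as a negative regulator of drought and salt tolerance, also rose. It had 77.3, 105 and 108 FPKM in SNAC1-D against 2.40, 12.1 and 10.5 FPKM in SNAC1-N. In ZH11 it had 105, 131 and 137 FPKM in ZH11-D against 2.52, 11.6 and 8.80 FPKM in ZH11-N. Every droughted library was above every watered one, and watered replicate 1 was again the lowest. The log2FC was 3.71 ± 0.59 for OE-19 and 4.15 ± 0.59 for ZH11, with limma adjusted p-values of 0.000517 and 0.000241. Without watered replicate 1 it was 3.03 ± 0.19 and 3.55 ± 0.19. LOC_Os10g28340 behaved alike at lower levels, with 39.8, 55.3 and 49.4 FPKM in SNAC1-D against 3.99, 14.4 and 12.1 FPKM in SNAC1-N, and 39.4, 58.3 and 55.1 FPKM in ZH11-D against 4.11, 11.1 and 10.6 FPKM in ZH11-N. Its log2FC was 2.35 for OE-19 and 2.60 for ZH11, and 1.81 and 2.17 without watered replicate 1. OsHsf23 (LOC_Os09g28354), also of class B, had a log2FC of 1.53 for OE-19 and 1.43 for ZH11, and LOC_Os02g32590 had 1.07 and 1.14. LOC_Os03g58160 was at the edge of the threshold, called in ZH11 at 1.07 and not in OE-19 at 0.94, and its difference between the genotypes was -0.13 ± 0.23. Without watered replicate 1 it was called in neither (0.79 for OE-19 and 0.95 for ZH11).

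One HSF was called lower. LOC_Os01g43590 had 0.312, 0.201 and 0.577 FPKM in SNAC1-D against 2.41, 5.09 and 3.68 FPKM in SNAC1-N, and 0.359, 0.510 and 0.535 FPKM in ZH11-D against 1.87, 3.70 and 3.65 FPKM in ZH11-N. Levels were low but did not overlap. The gene was below 1 FPKM in each droughted library and passed the filter only through the watered ones, where it was higher. The log2FC was -2.27 ± 0.30 for OE-19 and -1.84 ± 0.30 for ZH11, with limma adjusted p-values of 0.000153 and 0.0005.

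Other HSFs moved little. LOC_Os02g29340 had 6.0, 6.92 and 6.39 FPKM in SNAC1-D against 4.81, 5.66 and 4.81 FPKM in SNAC1-N, and 5.99, 6.74 and 6.62 FPKM in ZH11-D against 5.14, 5.41 and 5.67 FPKM in ZH11-N. Every droughted library was above every watered one of its genotype, but by little, with a log2FC of 0.31 ± 0.11 for OE-19 and 0.23 ± 0.11 for ZH11, under the threshold. LOC_Os05g45410 had 2.22, 3.04 and 3.04 FPKM in SNAC1-D against 2.18, 1.07 and 1.47 FPKM in SNAC1-N, and 2.26, 1.67 and 2.11 FPKM in ZH11-D against 3.40, 1.15 and 1.72 FPKM in ZH11-N. The ZH11 libraries of the 2 waterings overlapped and those of OE-19 did not, and the log2FC was 0.68 ± 0.30 for OE-19 and 0.04 ± 0.30 for ZH11. LOC_Os03g63750, LOC_Os03g12370, LOC_Os03g25120 and LOC_Os01g54550 were not called either, with log2FC values between 0.31 and 0.60 for OE-19 and between 0.34 and 0.79 for ZH11. The 5 untested HSFs, LOC_Os03g53340, LOC_Os06g36930, LOC_Os08g36700, LOC_Os07g44690 and LOC_Os09g28200, reached at most 2.41 FPKM. In a fit without the filter, LOC_Os06g36930 among them was called higher in both genotypes, with a log2FC of 1.49 for OE-19 and 1.18 for ZH11, and LOC_Os09g28200 was called lower in ZH11 (-1.01) and not in OE-19 (-0.46). In that fit 8.13% of features were called higher and 11.4% lower in OE-19, and 8.58% and 11.7% in ZH11.

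A further 3 HSFs were not called with all libraries and were called without watered replicate 1. OsHSFA2d (LOC_Os03g06630), a class A2 factor whose transcript is alternatively spliced in rice, had 14.6, 12.9 and 14.6 FPKM in SNAC1-D against 8.64, 155 and 126 FPKM in SNAC1-N, and 18.4, 14.1 and 14.4 FPKM in ZH11-D against 11.3, 94.9 and 151 FPKM in ZH11-N. Replicates 2 and 3 were far above the droughted libraries while replicate 1 was below them, and the gene was not called (log2FC -1.96 for OE-19 and -1.79 for ZH11). Without watered replicate 1 of both genotypes it was called lower, at -3.27 ± 0.21 and -2.91 ± 0.21.

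OsHsfC1b (LOC_Os01g53220), a class C factor linked to salt and osmotic stress in rice, ran the other way. It had 11.9, 21.2 and 20.8 FPKM in SNAC1-D against 18.3, 0.315 and 0.566 FPKM in SNAC1-N, and 13.5, 24.1 and 23.4 FPKM in ZH11-D against 22.8, 0.213 and 0.225 FPKM in ZH11-N. Watered replicate 1 was at the droughted level in both genotypes and the other watered libraries were below 1 FPKM. Its log2FC was 2.82 ± 1.41 for OE-19 and 3.14 ± 1.41 for ZH11, not called, and without replicate 1 it was 4.26 ± 0.31 and 4.81 ± 0.31, called higher in both.

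LOC_Os09g35790 was the third. It had 133, 172 and 142 FPKM in SNAC1-D against 1.55, 73.3 and 69.3 FPKM in SNAC1-N, and 139, 195 and 162 FPKM in ZH11-D against 2.37, 66.8 and 67.6 FPKM in ZH11-N. Droughted levels were above every watered library, yet the distance to replicate 1 and to the other replicates differed widely. Its log2FC was 2.76 ± 1.44 and 2.80 ± 1.44, not called, and 1.05 ± 0.16 and 1.28 ± 0.16 without replicate 1, called higher in both genotypes.

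The sHSP genes showed the widest range. In OE-19 12 of 15 tested sHSPs were called higher under drought and 0 lower (13.2% and 17.9% of all features). In ZH11 13 were higher and 0 lower (13.8% and 18.2% of all features). The limma p-value without adjustment was under 0.05 for 12 and 13 of them, and for 58.9% of all features in OE-19 and 59.6% in ZH11. Their median log2FC was 4.94 for OE-19 and 5.15 for ZH11, the highest of the 3 roles. Of the 15 genes, 4 had a mean under 1 FPKM over the watered libraries and passed the filter through drought, against 0 of 17 HSFs. The counts of calls and the size of the medians rest in part on that filter.

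LOC_Os01g04370 reached the highest level of all 47 genes. It had 1692, 2033 and 1687 FPKM in SNAC1-D against 2.15, 2.67 and 2.58 FPKM in SNAC1-N, and 1738, 1972 and 2044 FPKM in ZH11-D against 1.79, 2.89 and 3.25 FPKM in ZH11-N. Watered replicate 1 lay only a little below replicates 2 and 3. The log2FC was 9.25 ± 0.19 for OE-19 and 9.28 ± 0.19 for ZH11, with limma adjusted p-values of 1.79e-09 and 2.03e-09. LOC_Os03g14180 had 318, 314 and 261 FPKM in SNAC1-D against 0.133, 0.357 and 0.298 FPKM in SNAC1-N, and 229, 258 and 379 FPKM in ZH11-D against 0.191, 0.113 and 0.426 FPKM in ZH11-N. It was below 1 FPKM in each watered library, and the log2FC was 8.62 ± 0.22 for OE-19 and 8.59 ± 0.22 for ZH11. LOC_Os04g36750 had 192, 322 and 259.7 FPKM in SNAC1-D against 0.234, 0.149 and 0.477 FPKM in SNAC1-N, and 198, 318 and 330.3 FPKM in ZH11-D against 0.150, 0.596 and 0.436 FPKM in ZH11-N. It too was below 1 FPKM in each watered library, with a log2FC of 8.35 ± 0.28 for OE-19 and 8.30 ± 0.28 for ZH11.

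LOC_Os01g04340, LOC_Os01g04350, LOC_Os01g04360, LOC_Os01g04370 and LOC_Os01g04380 have consecutive identifiers on chromosome 1, and such neighbours can share reads if their sequences are nearly identical, so their single values are uncertain. Even so the neighbours differed. LOC_Os01g04380 had 668, 925 and 891 FPKM in SNAC1-D against 3.82, 5.13 and 5.11 FPKM in SNAC1-N, and 799, 914 and 963 FPKM in ZH11-D against 2.92, 5.60 and 3.66 FPKM in ZH11-N. LOC_Os01g04360 had 132, 177 and 151 FPKM in SNAC1-D against 0.352, 0.742 and 0.994 FPKM in SNAC1-N, and 174, 191 and 169 FPKM in ZH11-D against 0.437, 0.804 and 0.471 FPKM in ZH11-N. Both were low in every watered library, with a log2FC of 7.32 for OE-19 and 7.65 for ZH11 for LOC_Os01g04380, and of 7.03 and 7.40 for LOC_Os01g04360. LOC_Os01g04350 was already abundant in watered leaves, with 313, 312 and 327 FPKM in SNAC1-D against 98.5, 253 and 220.4 FPKM in SNAC1-N, and 315, 292 and 372 FPKM in ZH11-D against 98.4, 259 and 163 FPKM in ZH11-N. It was called in ZH11 at a log2FC of 1.01 (limma adjusted p = 0.0479) and not in OE-19 at 0.84, and without watered replicate 1 it was called in neither (0.66 in ZH11 and 0.42 in OE-19). LOC_Os01g04340 was not tested and reached 0.764 FPKM. In the fit without the filter it was called higher in ZH11 (log2FC 1.13) and not in OE-19 (0.74). There 8.58% of features were called higher in ZH11 and 8.13% in OE-19.

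LOC_Os03g16020, LOC_Os03g16030 and LOC_Os03g16040, neighbours on chromosome 3, rose to like levels. Under drought they lay between 78.7 and 139.5 FPKM in both genotypes. LOC_Os03g16040 had 78.7, 109 and 106 FPKM in SNAC1-D against 9.03, 9.28 and 10.1 FPKM in SNAC1-N, and 106, 117 and 128 FPKM in ZH11-D against 9.0, 15.0 and 9.84 FPKM in ZH11-N. Its watered libraries were close to each other, and the log2FC was 3.29 ± 0.20 for OE-19 and 3.35 ± 0.20 for ZH11. LOC_Os03g16030 was called higher at 4.94 ± 0.51 for OE-19 and 5.15 ± 0.51 for ZH11, and at 4.38 and 4.58 without watered replicate 1. LOC_Os03g16020 was lower in watered replicate 1, at 1.70 FPKM in SNAC1-N and 0.678 FPKM in ZH11-N, than in replicates 2 and 3 (10.6 to 12.8 FPKM). Its log2FC was 4.01 for OE-19 and 4.54 for ZH11, and 3.20 and 3.42 without replicate 1.

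Among the other sHSPs, LOC_Os01g08860 was abundant, with 1369 to 1690.1 FPKM in SNAC1-D against 40.4 to 55.0 FPKM in SNAC1-N, and a log2FC of 4.98 for OE-19 and 5.28 for ZH11. LOC_Os02g54140 had 698, 1002 and 966 FPKM in SNAC1-D against 1.03, 42.6 and 23.5 FPKM in SNAC1-N, and 907, 1089.8 and 1108 FPKM in ZH11-D against 1.62, 31.7 and 30.4 FPKM in ZH11-N. Its log2FC was 6.24 ± 1.25 for OE-19 and 6.33 ± 1.25 for ZH11, and 4.77 ± 0.25 and 5.03 ± 0.25 without watered replicate 1. LOC_Os06g14240 was called higher with a log2FC of 3.35 ± 0.53 in OE-19 and of 4.04 ± 0.53 in ZH11, and these were 2.72 and 3.5 without watered replicate 1. LOC_Os02g52150 had 33.0, 40.4 and 39.2 FPKM in SNAC1-D against 0.844, 15.6 and 22.1 FPKM in SNAC1-N, and 43.4, 39.9 and 41.4 FPKM in ZH11-D against 1.30, 20.3 and 15.2 FPKM in ZH11-N. Its droughted libraries were above every watered one, yet it was not called at 2.26 ± 1.07 and 2.33 ± 1.07. Without watered replicate 1 it was 0.99 in OE-19, not called, and 1.22 in ZH11, called higher. LOC_Os11g13980 was listed at 0 in every SNAC1-N library and at 0, 0 and 0.128 FPKM in ZH11-N, with 2.33, 3.17 and 3.67 FPKM in SNAC1-D and 3.15, 2.35 and 4.66 FPKM in ZH11-D. An exact 0 in FPKM gives no fold. LOC_Os02g12610 had 2.16, 2.61 and 2.02 FPKM in SNAC1-D against 2.01, 1.33 and 1.81 FPKM in SNAC1-N, and 2.52, 1.54 and 2.87 FPKM in ZH11-D against 2.28, 1.47 and 1.01 FPKM in ZH11-N. It stayed low in all groups, with a log2FC of 0.33 for OE-19 and 0.44 for ZH11, not called.

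The HSP101, HSP70 and HSP90 genes ranged between almost silent and abundant in watered leaves. In each genotype 6 of 9 were called higher under drought and 0 lower. Among all features 13.2% were called higher and 17.9% lower in OE-19, and 13.8% and 18.2% in ZH11. The unadjusted limma p-value was under 0.05 for 6 of 9 in OE-19 and 7 of 9 in ZH11. Of all features 58.9% and 59.6% had one. The median log2FC of the 9 genes was 2.66 for OE-19 and 2.95 for ZH11.

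LOC_Os03g16920, an HSP70 of the DnaK family, had 372, 509 and 446 FPKM in SNAC1-D against 0.650, 3.64 and 2.85 FPKM in SNAC1-N, and 319, 499 and 523 FPKM in ZH11-D against 0.656, 1.79 and 1.80 FPKM in ZH11-N. The waterings were far apart, with a log2FC of 7.45 ± 0.45 for OE-19 and 7.90 ± 0.45 for ZH11 and limma adjusted p-values of 1.64e-06 and 1.11e-06. LOC_Os04g01740 had 89.5, 147 and 122 FPKM in SNAC1-D against 0.107, 0.279 and 0.566 FPKM in SNAC1-N, and 107, 146 and 149 FPKM in ZH11-D against 0.105, 0.435 and 0.188 FPKM in ZH11-N. It was below 1 FPKM in each watered library, and its log2FC was 7.21 ± 0.26 for OE-19 and 7.51 ± 0.26 for ZH11. LOC_Os05g44340, the HSP101 disaggregase gene, had 139, 208 and 195 FPKM in SNAC1-D against 0.335, 1.68 and 1.81 FPKM in SNAC1-N, and 174, 203 and 217 FPKM in ZH11-D against 0.327, 1.56 and 1.22 FPKM in ZH11-N. Its log2FC was 6.79 ± 0.42 for OE-19 and 7.11 ± 0.42 for ZH11, and 6.31 and 6.72 without watered replicate 1.

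Abundant genes of this group moved less. LOC_Os11g47760 had 1009, 1142 and 1331 FPKM in SNAC1-D against 249, 359 and 397 FPKM in SNAC1-N, and 1139, 1161 and 1237 FPKM in ZH11-D against 229.5, 438 and 353 FPKM in ZH11-N. The waterings did not overlap, with a log2FC of 1.81 ± 0.26 for OE-19 and 1.84 ± 0.26 for ZH11. LOC_Os09g30412, an HSP90 gene, had 356 to 592 FPKM in SNAC1-D against 105 to 164 FPKM in SNAC1-N, and a log2FC of 1.74 for OE-19 and 1.80 for ZH11. LOC_Os05g38530 had 391, 414 and 417 FPKM in SNAC1-D against 2.20, 85.7 and 67.0 FPKM in SNAC1-N, and 437, 467 and 462 FPKM in ZH11-D against 2.86, 81.9 and 62.4 FPKM in ZH11-N. It was called at 4.02 ± 1.37 for OE-19 and 4.14 ± 1.37 for ZH11, and without watered replicate 1 of both genotypes it was 2.42 ± 0.15 and 2.66 ± 0.15, called in both. With 1 library left out, its call was lost in OE-19 without any of the SNAC1-D libraries or SNAC1-N replicate 1 (limma adjusted p = 0.0642 to 0.085), and in ZH11 without any of the ZH11-D libraries or ZH11-N replicate 1 (0.0562 to 0.0803).

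The remaining 3 were not called. LOC_Os03g60620 was steady, with 38.6, 46.8 and 48.2 FPKM in SNAC1-D against 32.5, 44.0 and 38.7 FPKM in SNAC1-N, and 43.1, 51.4 and 51.9 FPKM in ZH11-D against 40.6, 38.6 and 51.6 FPKM in ZH11-N. Its log2FC was 0.21 ± 0.17 for OE-19 and 0.17 ± 0.17 for ZH11. LOC_Os08g39140 had 122, 135 and 133 FPKM in SNAC1-D against 19.1, 172 and 168 FPKM in SNAC1-N, and 130.4, 150.4 and 139.7 FPKM in ZH11-D against 21.8, 194 and 134 FPKM in ZH11-N. Its sign hung on replicate 1, since the log2FC was 0.65 and 0.75 with it and -0.39 and -0.21 without it. LOC_Os01g62290 was not called at 2.66 ± 1.20 and 2.95 ± 1.20, and was called higher at 1.36 ± 0.19 and 1.58 ± 0.19 without replicate 1.

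**Figure D3:**
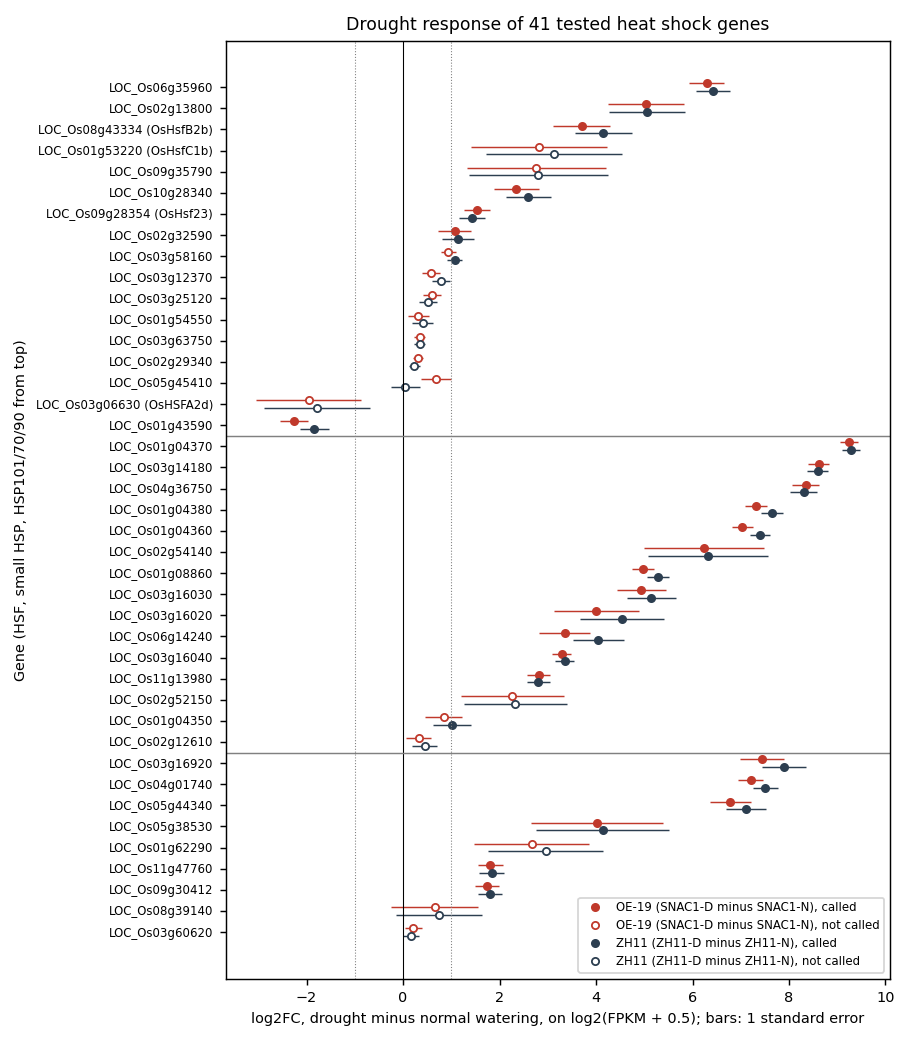
log2FC of drought minus normal watering for the 41 tested heat shock genes, in OE-19 and in ZH11, with bars of 1 standard error, where filled points were called and open points were not. Values run between -2.27 and 9.28, the 2 genotypes lie close together in most rows, and the widest bars belong to genes that were apart in watered replicate 1.

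In watered replicate 1, 14 of the 41 genes were lower than in both other watered libraries in both genotypes by the rule above, 1 was higher and 26 were not apart, where 6.04% of all features were lower and 4.22% higher. The 14 were 5 HSF, 5 sHSP and 4 HSP101/70/90 genes, and the gene that was higher was OsHsfC1b. Leaving it out in both genotypes kept the main pattern. Of the 41 genes 27 were called higher and 2 lower in OE-19, and 28 higher and 2 lower in ZH11, where 15.1% and 20.5% of 19849 features were called higher and lower in OE-19 and 15.8% and 20.9% in ZH11. Of the genes called higher with all libraries, 24 of 24 in OE-19 and 24 of 26 in ZH11 were called higher without replicate 1, and the 2 lost in ZH11 were LOC_Os03g58160 (0.95) and LOC_Os01g04350 (0.66). What set replicate 1 apart was not tested.

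**Figure D4:**
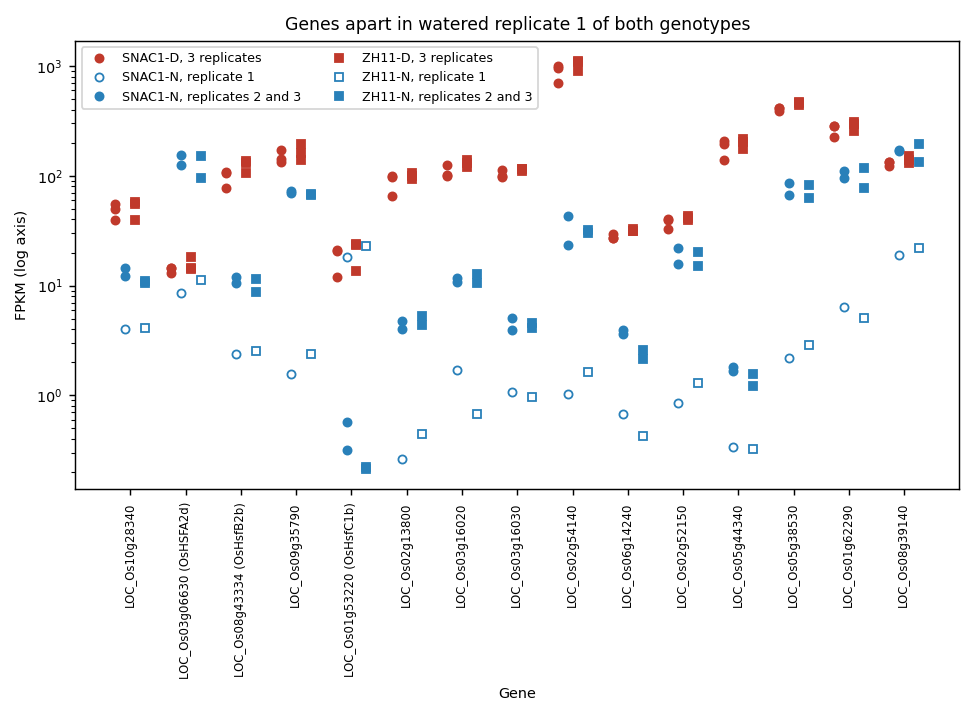
FPKM on a log axis in all 12 libraries for the 15 tested genes that stood apart in watered replicate 1 of both genotypes, with open symbols for that replicate, red for drought and blue for normal watering. Open symbols lie below the filled blue ones in 14 genes and above them in OsHsfC1b (18.3 FPKM in SNAC1-N and 22.8 FPKM in ZH11-N).

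None of these genes was called between OE-19 and ZH11. Of the 41 genes 0 were called between SNAC1-N and ZH11-N, where 0.22% of all features were called higher and 0.045% lower. Between SNAC1-D and ZH11-D 0 were called, where 0.27% were higher and 0.035% lower. In the difference of the drought responses, OE-19 minus ZH11, 0 were called, where 0.01% were higher and 0.01% lower. At an unadjusted limma p-value under 0.05 the count was 0 of 41 in each of the 3 comparisons, against 1.57%, 1.48% and 0.881% of all features. The fit shared its spread over all 4 groups, so watered replicate 1 also entered the standard errors of the drought comparison. For OsHsfB2b that standard error was 0.59, and 0.17 without watered replicate 1 of both genotypes. In the fit without it 0 of 41 genes were called under drought, where 0.292% of features were called higher and 0.0353% lower. A count of 0 thus does not show that the genotypes were alike.

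Libraries of the same number deviated together in the 2 genotypes within a watering, for the 41 genes more weakly under drought. A fit with the replicate number as a block within each watering lowered their median standard error from 0.30 to 0.13 for a genotype contrast. That fit pooled its spread over both waterings, so the drought intervals with the block lean in part on the closer pairing of the watered libraries. With that block 0 of 41 genes were called in all 3 comparisons, and 2, 1 and 3 genes had an unadjusted p-value under 0.05, against 6.29%, 5.22% and 3.67% of all features. Under drought the gene was OsHsfB2b, with a log2FC of -0.37 (95% interval -0.56 to -0.17, unadjusted p = 0.00323, limma adjusted p = 0.398). Under normal watering they were LOC_Os06g14240, an sHSP gene, at 0.51 (0.28 to 0.74, limma adjusted p = 0.201) and LOC_Os03g16920 at 0.46 (0.06 to 0.86, limma adjusted p = 0.701).

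With so few genes the counts were not far from those shares, and the genes were picked by these p-values. Their values, given next, describe them and add no support for a difference between the genotypes. The labels do not tie the replicate numbers to pots. OsHsfB2b had 77.3, 105 and 108 FPKM in SNAC1-D against 105, 131 and 137 FPKM in ZH11-D, so each OE-19 library was below the ZH11 library of its number. LOC_Os06g14240 had 27.4, 29.2 and 27.2 FPKM in SNAC1-D against 31.5, 32.6 and 31.4 FPKM in ZH11-D, and 0.672, 3.98 and 3.64 FPKM in SNAC1-N against 0.427, 2.14 and 2.59 FPKM in ZH11-N. It was lower in OE-19 under drought and higher under normal watering in each pair, and the difference of its responses was -0.69 (95% interval with the block -1.02 to -0.36, limma adjusted p = 0.724). In the same fit the difference of the responses was -0.45 (-0.72 to -0.17) for OsHsfB2b and 0.64 (0.07 to 1.21) for LOC_Os05g45410, both with a limma adjusted p-value of 1.

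Under drought 35 of the 41 genes had a lower mean log2 level in SNAC1-D than in ZH11-D, while 44.1% of all features were higher in SNAC1-D. The differences were small, with a median of -0.12 (range -0.37 to 0.37) beside -0.02 over all features. The count was 36 with median ratio scaling and 32 with quantile normalization. The 41 genes share their libraries, so the count is not 41 separate observations. For 2 of them, LOC_Os06g14240 and LOC_Os05g38530, every SNAC1-D library was below every ZH11-D library, as in 3.19% of all features, and for 0 genes every SNAC1-D library was above (3.06%). Under normal watering 22 genes were higher and 19 lower in SNAC1-N than in ZH11-N, with a median of 0.01. No gene had every SNAC1-N library above or below every ZH11-N library, where 1.62% of all features lay above and 1.46% below. With quantile normalization these were 20 and 21.

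The intervals limit what could have been seen. With the block, the 95% interval of the OE-19 minus ZH11 log2FC lay within -1 and 1 for 41 of 41 genes under drought and for 41 of 41 under normal watering, between -0.74 and 0.78 at the extremes under drought. Without the block it did so for 24 and 25 genes. For the difference of the drought responses it did so for 37 of 41 genes with the block, with extremes of -1.20 and 1.21, and for 16 without it. For LOC_Os01g04370 the drought difference was -0.09 (95% interval -0.51 to 0.33 without the block). The genes with the smallest p-values without the block were LOC_Os03g16040 (-0.27 ± 0.20), LOC_Os05g45410 (0.37 ± 0.30) and LOC_Os01g04360 (-0.22 ± 0.21) under drought. Under normal watering they were LOC_Os03g60620 (-0.18 ± 0.17), LOC_Os03g25120 (-0.20 ± 0.19) and LOC_Os03g16040 (-0.21 ± 0.20). LOC_Os03g25120, an HSF gene, had 2.46, 2.62 and 3.24 FPKM in SNAC1-D against 2.29, 3.94 and 2.99 FPKM in ZH11-D, and 1.33, 1.86 and 1.78 FPKM in SNAC1-N against 1.77, 1.91 and 2.23 FPKM in ZH11-N, and the genotypes overlapped under both waterings. In the difference of the responses they were LOC_Os05g45410 (0.64 ± 0.43), LOC_Os01g04360 (-0.36 ± 0.30) and LOC_Os01g04380 (-0.34 ± 0.32).

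**Figure D5:**
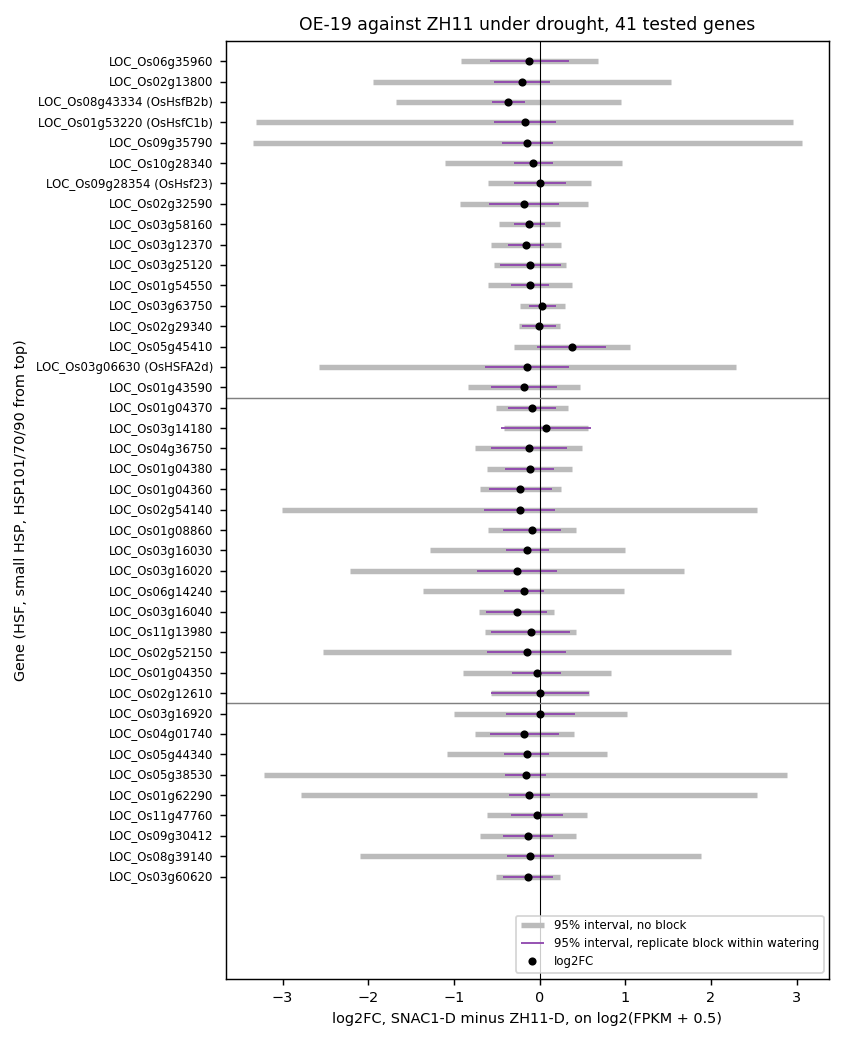
log2FC of SNAC1-D minus ZH11-D for the 41 tested genes (points), with the 95% interval without a block (grey) and with the replicate block within a watering (purple). All points lie between -0.37 and 0.37, 35 of them left of 0, and the widest grey intervals belong to genes that were apart in watered replicate 1.

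A list of 7 other genes of protein folding and the heat stress response was read beside them. Of 6 tested, 2 were called higher under drought in each genotype, 0 lower and 4 neither. Among all features 13.2% were called higher and 17.9% lower in OE-19, and 13.8% and 18.2% in ZH11. Between genotypes 0 of the 6 were called. Of all features 0.22% were called higher and 0.045% lower under normal watering, and 0.27% and 0.035% under drought. For the difference of the drought responses it was 0.01% each way. The 2 were LOC_Os03g31300, with 60.9, 77.1 and 70.8 FPKM in SNAC1-D against 14.0, 28.4 and 22.7 FPKM in SNAC1-N, and LOC_Os02g08490, with 18.6, 25.7 and 24.8 FPKM in SNAC1-D against 0.793, 6.17 and 5.26 FPKM in SNAC1-N. LOC_Os02g08490 was also low in replicate 1 of ZH11-N (0.713 FPKM, against 5.82 and 4.88 FPKM). Its log2FC with all libraries was 2.66 ± 0.69 for OE-19 and 2.83 ± 0.69 for ZH11, and the value without watered replicate 1 is not given here. LOC_Os06g50300, an HSP90 of the endoplasmic reticulum (GRP94), was not called, with a log2FC of 0.25 for OE-19 and -0.00 for ZH11.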

How the data were processed

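The 50 genes and the lists were chosen with earlier results of these data known. For RNA-Seq, the authors mapped reads to MSU 7.0 and deposited FPKM values. The submitters' processing notes name HISAT2 and StringTie among their tools, and versions are not given in the sources used here. Depth is unknown, because FPKM hold no counts, and no interval for counting error is given. FPKM of the 12 libraries were analysed in R 4.3.3 with limma 3.58.1 on log2(FPKM + 0.5), for 19979 of 55490 features with a mean of at least 1 FPKM. One fit held all 4 groups, and the variance was let follow the mean level. It was tested on simulated data in which each library was drawn independently. Those data lack the shared deviations of libraries of the same number and a watered replicate 1 that stands apart. Columns of sample values left unused numbered 0.

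Genes named with all values are, in each role, the 5 called genes with the largest and the 2 tested genes with the smallest log2FC in ZH11, and the 3 with the smallest p in each comparison of OE-19 with ZH11. Others were named after their values were seen. Libraries of the same number correlated in their deviations from the group means (r = 0.882, 0.486 and 0.507 under normal watering, 0.589, 0.58 and 0.211 under drought), while between waterings r was -0.127 to -0.0432. The labels' treatment protocol states that transgenic and ZH11 plants shared pots, without tying numbers to pots, and the numbers were taken as pairs within a watering. The ChIP-Seq tables hold signals per interval with the authors' own folds and p-values, and were not analysed here. Promoter and protein sequences were not used here. Alternatives changed the pseudocount, filter, scaling, variance trend, thresholds, groups fitted, block and libraries.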

Additional observations from a re-analysis of the deposited data

How the results depend on the processing

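Without fragment counts, how precisely a low FPKM was measured is unknown, which limits LOC_Os11g13980 and other genes near 0 most. The count of called genes under drought was 25 for OE-19 and 27 for ZH11. Over the alternatives run it was 23 to 30 for OE-19 and 23 to 31 for ZH11, and 23 to 28 and 24 to 31 when one library was left out. Without watered replicate 1 of both genotypes it was 30 and 31. With the replicate block (number as a factor over all libraries) it was 27 for OE-19 and 29 for ZH11. It was 0 in each comparison of OE-19 with ZH11 under every alternative, the block within a watering included, which changed no call. No scaling moved the median of all features by over 0.1.

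Named genes changed as follows, and where no library is named the cause was not tested. Leaving out one library at a time gave LOC_Os08g39140 a log2FC of -0.39 to 1.18 in OE-19 and of -0.21 to 1.36 in ZH11, and without watered replicate 1 in both genotypes it was -0.39 and -0.21. LOC_Os05g45410 in ZH11 was -0.23 to 0.38 with one library left out and -0.0075 with median ratio scaling. LOC_Os03g16040 in SNAC1-N minus ZH11-N was -0.34 to 0.0079 with one library left out, positive without ZH11-N replicate 2. LOC_Os05g38530 under drought lost its call in OE-19 without a filter (limma adjusted p = 0.0529) and in 4 leave-one-out fits of each genotype (adjusted p up to 0.085 in OE-19 and 0.0803 in ZH11). LOC_Os01g04350 in ZH11 lost its call in 14 of 22 alternatives. The planned change of the distance from an interval to a gene start was not run, because intervals were not assigned to genes.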
